A study of Mus musculus with 3 samples.

Results

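Exhausted-like CD8 T cells were liver T cells in which transcripts of the CD3 and CD8 complexes and of at least 1 of Gzmk, Pdcd1, Lag3 and Tigit were detected. They were chosen by their transcripts in the single-cell RNA-sequencing (scRNA-seq) tables. A cell needed 200 to 4000 genes and at most 25% mitochondrial UMIs (unique molecular identifiers, the molecules counted), and at least 1 UMI of Cd3d, Cd3e or Cd3g, of Cd8a or Cd8b1, and of the 4 genes. It also had to lack Foxp3 and Cd79a, the markers of regulatory T cells and B cells, and to hold at most 2 UMIs of Clec4f and Vsig4, markers of Kupffer cells (KCs). The rule found 569 cells among 42971 cells that passed the filters on genes and mitochondrial UMIs, of 52335 cells in all. Of these, 534 came from one library and 35 from the other.

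CD8 T cells kill infected or transformed cells through perforin and granzymes. When antigen persists, they can take on a state called exhaustion, in which inhibitory receptors such as PD-1 (Pdcd1), LAG-3, TIGIT and TIM-3 (Havcr2) stay on the surface and the transcription factor TOX maintains the program. Cells that keep TCF-1 (Tcf7) can renew this pool, while cells with TIM-3 are its late form. In fatty liver disease, CD8 T cells with PD-1 and granzyme K collect in the liver.

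The study asked how the protein Chi3l1 acts on hepatic macrophages in steatotic liver disease, and its scRNA-seq covered liver cells of C57BL/6J mice captured on the BD Rhapsody system. The first library, here the HFHC pool, holds WT mice on the high-fat, high-cholesterol (HFHC) diet together with Chil1-/- mice (spelled as in the sample labels) on the same diet, and the table does not say from which genotype a cell came. The second, here the WT library, was matched by elimination to a sample titled MCD. Its file header names another library, APAP0h, and the study describes WT mice on a normal chow diet (NCD), so that its diet is uncertain. The methods name male mice for most experiments, not for this one by name, and the knockout as constitutive, in all cells of the body, and the targeted gene cannot check the labels where genotypes are mixed. The number of mice behind each library was not given in the sources used here. The labels call the isolated cells parenchymal and the methods non-parenchymal. Diet, genotype, capture and library cannot be told apart.

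With 1 library per group there was no replicate check and no test. Intervals below are exact 95% intervals, binomial for shares and Poisson for summed UMIs, and cover counting error only. The HFHC pool held 71981673 UMIs in 21601 cells and the WT library 53720863 UMIs in 30734 cells. In both, 756 cell barcodes were the same. Such a barcode was held by 19 members of the pool and 1 of the WT library, and no barcode was shared between members.

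In the HFHC pool, 534 of 1046 CD8 T cells met the rule (51.1%, 48.0 to 54.1), and in the WT library 35 of 446 (7.85%, 5.53 to 10.7). Among all cells that passed the filters these were 2.72% of 19625 and 0.150% of 23346. The share depends on how many UMIs a cell has. Members of the pool had a median of 3526.5 UMIs and the other CD8 T cells 3983.5. In the WT library the members were the deeper cells, with a median of 3293 UMIs against 2131. After each cell was thinned to 1000 UMIs, any of the 4 genes was seen in 34.2% of the CD8 T cells of the pool (356 of 1040) and in 3.29% of those of the WT library (14 of 425), so that the 2 shares lay apart at equal depth too. B cells, which should lack these genes, gave the background. A UMI of the 4 genes was found in 2.97% of the B cells of the pool (median 2728 UMIs) and in 0.288% of those of the WT library (median 1393 UMIs), or 0.690% and 0.275% after thinning. Other T cells also had them: 61.4% of the regulatory T cells of the pool and 24.7% of its CD4 T cells held a UMI of the 4 genes, against 15.7% and 3.44% in the WT library.

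The 4 genes that chose the members were unequally shared in the pool. Gzmk (chr13:113171608-113225908, minus strand, GRCm38), which encodes the serine protease granzyme K, was detected in 439 of the 534 members (82.2%). The receptor genes Lag3 (chr6:124904361-124911705, minus strand), Tigit (chr16:43648867-43664146, minus strand) and Pdcd1 (chr1:94038305-94052553, minus strand) were detected in 272 (50.9%), 249 (46.6%) and 210 (39.3%) members. Among B cells the share with a UMI was between 0.114% and 1.71% for each of the 4. The commonest pattern was Gzmk alone, in 132 members. The next was all 4 genes together, in 90 members. A further 51 cells held Gzmk with Lag3, and 50 held Gzmk with Lag3 and Tigit. Only 16 members held Pdcd1 alone. In total 196 members held 1 of the genes, 130 held 2, 118 held 3 and 90 held 4.

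As levels, Gzmk was at 553 CPM (a gene's UMIs scaled to the total of the group) in pool members, 46.2 in CD4 T cells and 15.2 in regulatory T cells. Lag3 was at 287, 26.9 and 71.1 CPM and Pdcd1 at 162, 35.7 and 51.2 CPM in the same order. Tigit was at 200 CPM in members (182 to 220), 53.7 in CD4 T cells and 237 in regulatory T cells (208 to 268), so that it was not highest in members. Members were chosen by a UMI of these genes, and the CD4 and regulatory T cells were not. Higher levels in members were therefore partly set in advance.

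The 35 members of the WT library looked different. Of them, 28 held 1 of the genes, 7 held 2 and none held 3 or 4, which allows a share of up to 8.57%, taken as 3 counts of the total. Gzmk was detected in 5 members only, with 7 UMIs in all, whereas Lag3 and Tigit were detected in 13 each and Pdcd1 in 11. A single UMI of the 4 genes admitted 23 of these 35 cells (65.7%), compared with 111 of 534 in the pool (20.8%).

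**Figure D1:**
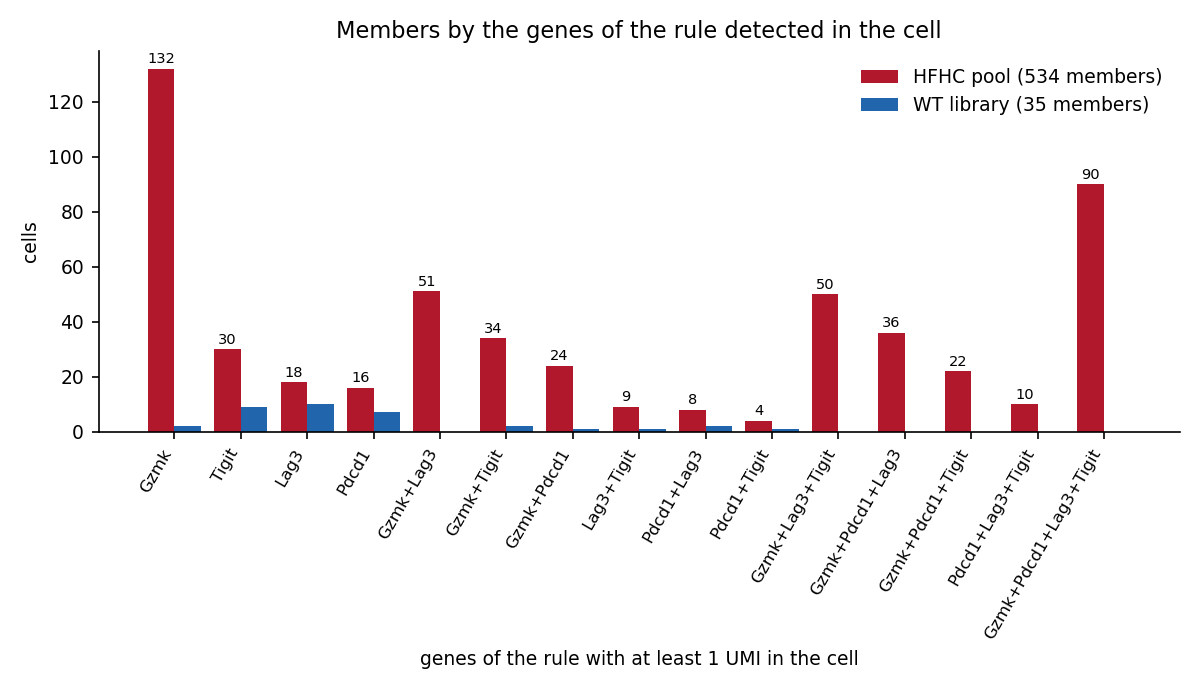
Number of member cells (y axis) by the set of rule genes with at least 1 UMI in the cell (x axis), in the HFHC pool (red) and the WT library (blue). In the pool Gzmk alone (132 cells) and all 4 genes (90 cells) are the 2 tallest bars, and in the WT library no cell has more than 2 of the genes.

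The label was checked with Tox (chr4:6686353-6991557, minus strand), the marker that the rule did not use. In the pool the members held 1244 Tox UMIs, or 562 CPM, and the other CD8 T cells 164, or 73.5 CPM, a difference of 2.93 on the log2 scale (2.70 to 3.18). Tox was detected in 71.0% of members, 20.7% of the other CD8 T cells and 0.800% of B cells, and after thinning to 1000 UMIs in 40.3%, 7.71% and 0.345%. Cd8a was detected in 96.8% of members and Cd8b1 in 93.3%, of which the rule required either. In the WT library Tox was found in 5 of 35 members with 12 UMIs (81.2 CPM against 40.6 in the other CD8 T cells, 1.08 on the log2 scale, interval -0.06 to 1.96) and Havcr2 in 1 member with 2 UMIs. There the data do not bear out the label, and these 35 cells are called members by the rule only.

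Cells at the edge of the rule lay between the groups. The 111 pool members with exactly 1 UMI of the 4 genes had 250 CPM of Tox, 488 of Tcf7, 804 of Il7r and 13839 of Ccl5. The cells just outside it, with no such UMI, had 73.5 CPM of Tox, 927 of Tcf7, 1256 of Il7r and 4596 of Ccl5. A further 15 cells of the pool had over 4000 genes and met the rule otherwise. The caller of doublets (pairs of cells read as one) marked 28 members (5.24%) and 32 of the other CD8 T cells (6.25%), which were kept. UMIs of Cd4, of the gamma-delta receptor genes Trdc and Tcrg-C1, Tcrg-C2 and Tcrg-C4, or of the NK genes Klrb1c and Ncr1 were found in 128 pool members (24.0%) and in 145 of the 512 other CD8 T cells (28.3%), in the members most often of Tcrg-C2 (83 members) and Tcrg-C4 (73). Mitochondrial UMIs moved with the groups. Their median share was 6.43% in the pool's members and 9.82% in its other CD8 T cells, and by number of rule genes from 0 to 4 it was 9.82%, 7.87%, 6.23%, 5.52% and 5.50%. With a mitochondrial limit of 10% the comparison below gave 370 higher and 285 lower genes, of which 306 and 153 were among the 448 and 255 found at 25%. By this limit, tried on Tox and the lists after the data were seen, Tox was at 2.98 in place of 2.93 on the log2 scale, the median of the checkpoint list at 1.66 in place of 1.80 and that of the naive and central memory list at -1.79 in place of -1.70. The cytotoxic list went from 1.21 to 0.82, the chemokine list from 0.87 to 0.56 and the cell cycle list from 1.06 to 0.72.

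In the pool the members were next compared with the 512 CD8 T cells that lacked the 4 genes, gene by gene for the 8159 genes whose UMIs in both groups summed to 50 or more. The log2 ratio is of CPM with 1 UMI added to each sum, and the genes of the rule are left out. A gene counts as higher or lower past a log2 ratio of 1, a fold of size and not a test. By this 448 genes (5.49%) were higher in members and 255 (3.13%) lower, and the median gene lay at 0.11. With that median set to 0 the split was 354 to 336. Since the 4 genes made the groups, what follows describes them and does not test whether they are separate.

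Havcr2 (chr11:46454935-46481255, plus strand), the gene of the inhibitory receptor TIM-3, had the highest ratio among genes with at least 5 UMIs in each group. Members held 418 UMIs in 195 cells and the other CD8 T cells 12 UMIs in 7 cells (189 against 5.38 CPM, 5.02 on the log2 scale, interval 4.31 to 6.10). It was seen in 36.5% of members, 1.37% of the others and 0.571% of B cells, or 16.7%, 0.791% and 0.115% after thinning. Of the checkpoint and exhaustion genes, 16 of 23 measured were higher in members and 1 lower, with a median of 1.80. Tox2, a relative of Tox, had a higher ratio still, from 150 UMIs in members and 1 in the others (6.25, interval 4.74 to 12.55). Entpd1 (CD39, which breaks down extracellular ATP) was higher by 2.98, Ctla4 by 2.56, Cd38 by 1.82 and the co-inhibitory receptor Cd244a by 1.97. Among the transcription factors, Prdm1 (Blimp-1) was higher by 3.35, Maf by 2.55, Nr4a2 by 2.27, Bhlhe40 by 1.80, Nfatc1 by 1.73 and Eomes by 1.51. Rgs16, a regulator of G-protein signaling, was higher by 3.93. Btla, another inhibitory receptor gene, was the lower one (-1.18), and Nr4a1 (-0.57) and Nr4a3 (-0.55) were within the fold.

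Cytotoxic genes were higher as well, but not as a block. Of 21 measured, 11 were higher and 1 lower, with a median of 1.21. Gzma (granzyme A) led, with 1937 CPM in members and 132 in the other CD8 T cells (3.87). Also among the higher ones were Gzmb (1152 against 184 CPM, 2.64), the death ligand Fasl (2.23), the granule protein Nkg7 (1.78) and the pore-forming Prf1 (1.68). Ifng, the gene of interferon-gamma, was at 150 against 60.9 CPM (1.29), whereas Tnf was at 18.1 against 20.2 CPM (-0.15). Gzmm, another granzyme, was lower (-1.39), and the NK receptor genes Klrd1 (-0.18), Klrc1 (-0.04) and Klrk1 (-0.33) were within the fold. Some of these transcripts were concentrated in few cells. Gzma was held by 189 members, with a median of 13 and up to 102 UMIs in a cell, and the 53 members with most held 69.2% of it. For Ccl3, Ccl4 and Havcr2 the 53 members with most held 65.5%, 62.4% and 53.3%, and for Gzmk 28.9%.

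Of the chemokines and their receptors, 7 of 14 measured were higher and 3 lower (median 0.87). Ccl5, which attracts T cells and monocytes, took up 26985 CPM of the members and 4596 of the others (2.55), and was detected in 99.1% and 68.6% of cells against 6.97% of B cells. Ccl4 was at 1065 against 153 CPM (2.80) and Ccl3 at 648 against 55.6 CPM (3.53). Both encode chemokines that draw in T cells and macrophages. Cxcr6, which holds T cells in the liver sinusoids, was at 521 against 171 CPM (1.60). The homing receptor gene Cxcr4 was lower (-1.08). Of 12 residency genes, only Rgs1 (2.64) and Cxcr6 were higher. The integrin genes Itgae (-0.29) and Itga1 (-0.07) were within the fold, and Cd69, an early activation marker, was lower (-1.36).

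Genes of naive and central memory T cells were lower throughout. Of 17 measured, 14 were lower, none higher, and the remaining 3 were below 0 too (median -1.70). Ccr7, which brings T cells into lymph nodes, was at 14.0 against 223 CPM (-3.95). Tcf7 was at 200 against 927 CPM (-2.21), its relative Lef1 at 55.6 against 323 CPM (-2.53), and Il7r, the receptor of the survival cytokine IL-7, at 310 against 1256 CPM (-2.02). Satb1, a chromatin organizer, was lower by a log2 ratio of -3.01. Klf2 (-1.67) and its target S1pr1 (-1.53), through which T cells leave tissue, were lower too. Tcf7 was detected in 28.3% of members and 83.8% of the other CD8 T cells, against 2.29% of B cells, and after thinning in 13.5%, 53.0% and 0.460%. The cytokine receptor genes went both ways, with Il10ra (1.66) and Tnfrsf1b (1.29) higher and Il7r, Il6ra (-2.56), Il4ra (-1.64) and Il18r1 (-1.26) lower, of 15.

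Cell cycle genes were higher in 8 of 15 measured and lower in none (median 1.06). Mki67, a marker of dividing cells, was at 146 against 35.8 CPM (2.02) and Top2a, which untangles DNA, at 170 against 44.4 CPM (1.93). A UMI of Mki67 was found in 86 members (16.1%, 13.1 to 19.5) and 17 of the other CD8 T cells (3.32%, 1.95 to 5.26). B cells had it in 5.71%. Of the members with Mki67, 54.7% (43.5 to 65.4) held 3 or 4 of the rule genes, against 35.9% (31.5 to 40.6) of the members without it. Their median depth was 3840.5 and 3494 UMIs, and its part in these shares was not tested.

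Signaling genes differed less. In the list of the T cell receptor complex and proximal signaling, 3 of 18 were higher, Sh2d2a (1.85), Fyn (1.23) and Trac (1.07), and none lower. The CD3 genes, not counted as genes of the rule, were at 1.30 (Cd3g), 1.12 (Cd3e) and 0.28 (Cd3d). Of the 21 immediate-early genes, which also respond to tissue dissociation, Atf3 was higher (1.39), Fos (-1.70) and Fosb (-1.27) lower and 18 within the fold. Of 18 interferon-stimulated genes, Isg20 was higher (1.23), Usp18 lower (-1.18) and 16 within the fold. In the NK and unconventional T cell list 2 of 10 were higher, Klra8 (1.91) and Tcrg-C4 (1.06), and 2 lower, Trdc (-1.34) and Klra7 (-1.05). The gamma-delta T cell gene Cd163l1 had no UMI in members and 32 in the other CD8 T cells.

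**Figure D2:**
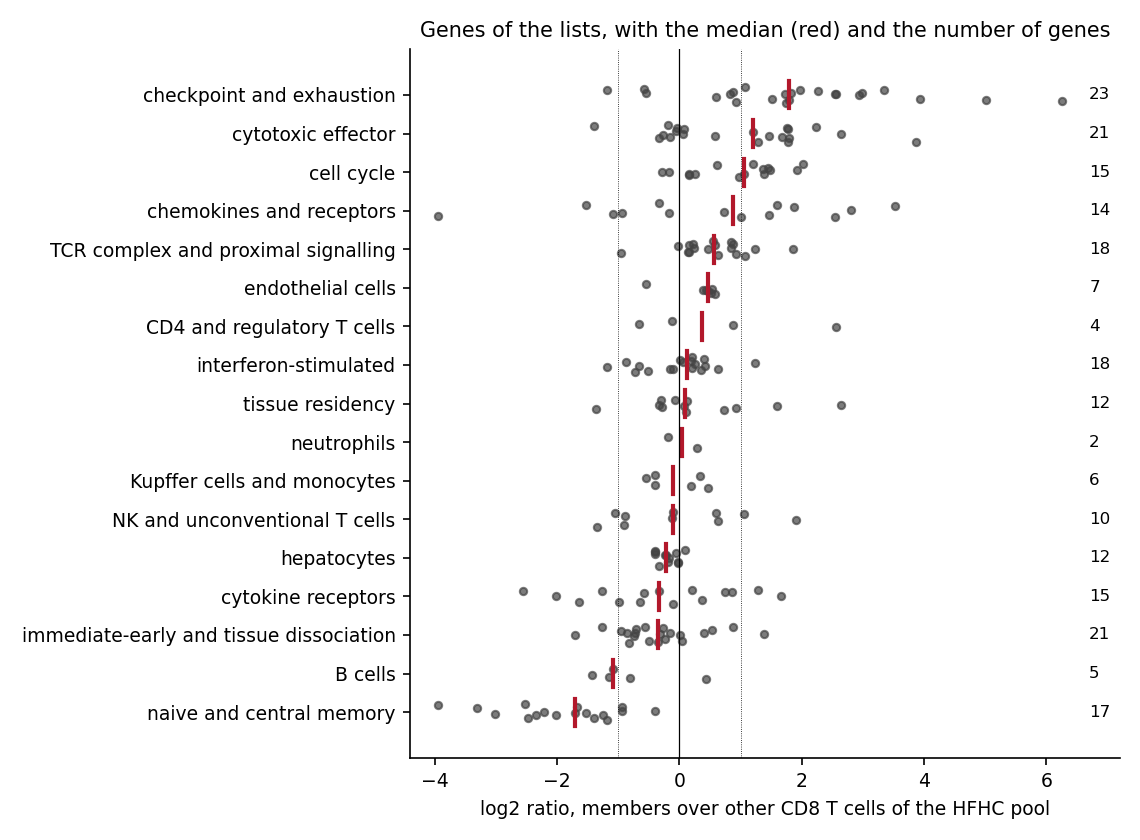
Log2 ratio of CPM, members over other CD8 T cells of the HFHC pool (x axis), of every measured gene (points) in 17 gene lists (y axis), with each list's median in red and its number of genes at the right. The checkpoint list (median 1.80) and the naive and central memory list (median -1.70) lie at the 2 ends, and dotted lines mark a log2 ratio of 1 in either direction.

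RNA of other cell types was present in both groups. The 12 hepatocyte genes summed to 2299 CPM in members, 2771 in the other CD8 T cells and 3680 in B cells, none past the fold. Summed Kupffer cell and monocyte genes were at 467 against 432 CPM, neutrophil genes at 47.9 against 46.2 and endothelial genes at 789 against 613. The 10 B cell genes were at 1082 against 1874 CPM, and 3 of the 5 measured were lower in members. In each group 90 cells held 20 or more UMIs of these lists together. Without them 445 genes were higher and 264 lower, and the median of the B cell list moved from -1.09 to 0.02 and that of the endothelial list from 0.47 to -0.16. The checkpoint list was then at 1.88 and the naive list at -2.23.

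Besides Havcr2, Rgs16, Gzma, Ccl3 and Prdm1, the 12 highest ratios among genes with at least 5 UMIs in each group were those of Gm36723 (4.15), Neb (4.11), Ier5l (3.89), Chst2 (3.59), Setbp1 (3.52), 2900026A02Rik (3.51) and Sdcbp2 (3.41). Neb, which encodes the giant muscle protein nebulin, had 187 UMIs in 86 members and 10 UMIs in 6 other CD8 T cells. Gm36723, a predicted gene, had 192 UMIs in 113 members and 10 in 9 others. At the other end, besides Ccr7 and Satb1, stood Dapl1 (-3.30), H2-Ob (-3.01), Treml2 (-3.01), St6gal1 (-2.95), Usp28 (-2.94), Nsg2 (-2.80), Tdrp (-2.75), Sh3pxd2a (-2.65), Gm12840 (-2.62) and Il6ra (-2.56). All 24 kept their direction without the cells that held RNA of other cell types.

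**Figure D3:**
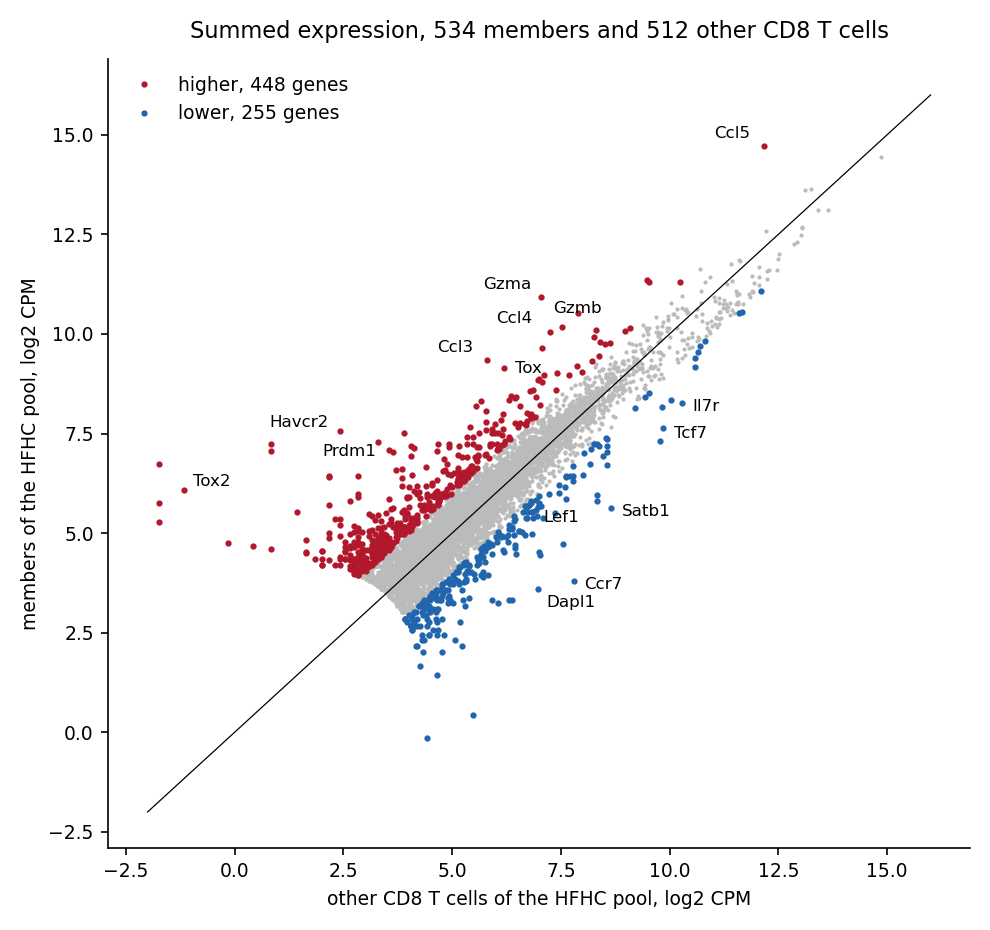
Log2 CPM of summed UMIs of each gene compared in the 512 other CD8 T cells (x axis) and the 534 members (y axis) of the HFHC pool. Red points are the 448 genes higher and blue points the 255 genes lower by a log2 ratio of 1 or more, the line marks equal levels, and genes without a UMI in the other CD8 T cells stand at the left edge of the points.

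The members were not uniform. Of the 61 named genes outside the rule that were higher in members, 33 rose at every step from 0 to 4 rule genes in a cell, and of the 38 lower ones 13 fell at every step. Since these genes were chosen by their difference between cells with 0 and with 1 or more rule genes, the first step was partly set in advance. The share over all compared genes was not counted, so that these counts are a description. Tox was at 73.5, 266, 599, 728 and 900 CPM in pool cells with 0, 1, 2, 3 and 4 rule genes. Havcr2 was at 5.38, 46.0, 165, 297 and 366 CPM, and Ccl3 at 55.6, 293, 464, 747 and 1469 CPM. Cx3cr1, the fractalkine receptor of circulating effector cells, was highest at 1 rule gene, at 21.5, 86.9, 70.0, 36.0 and 25.4 CPM. Gzma reached 3428 CPM in cells with all 4, against 132 CPM in cells with none. Tcf7 was at 927, 422, 101, 70.0 and 43.2 CPM and Il7r at 1256, 689, 132, 94.6 and 45.7 CPM. Among members median depth rose in the same order, at 3268, 3313, 3616 and 3954 UMIs per cell with 1 to 4 rule genes, and its part in these levels was not tested. Cells with none had 3983.5. The mitochondrial share fell in this order, as given above. In the WT library, where no cell had more than 2 of the genes, Tox was at 81.2 CPM over all members.

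**Figure D4:**
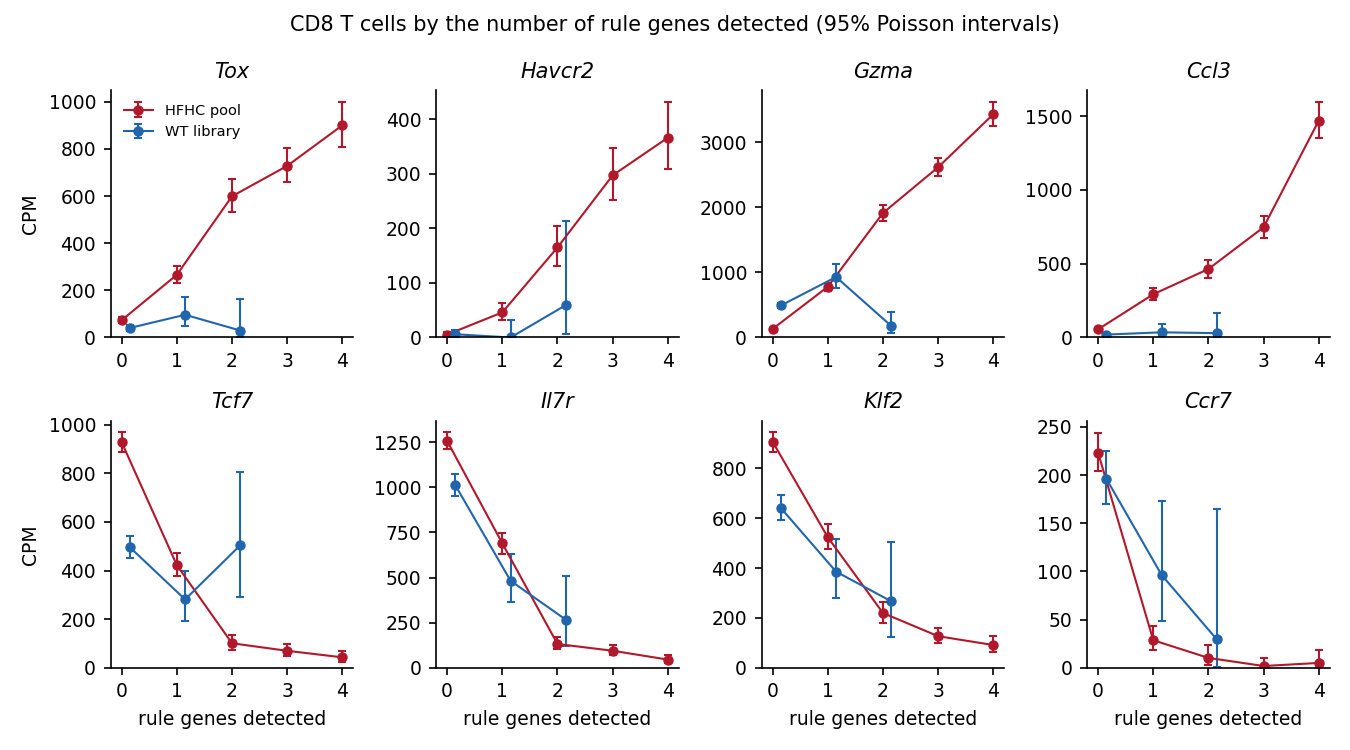
CPM of 8 genes (y axes) in CD8 T cells with 0 to 4 rule genes detected (x axes), in the HFHC pool (red) and the WT library (blue, up to 2 genes), with exact 95% Poisson intervals of the sums. In the pool Tox, Havcr2, Gzma and Ccl3 are highest at 4 genes, and Tcf7, Il7r, Klf2 and Ccr7 are highest at 0.

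Within the pool, the 402 members with Pdcd1, Lag3 or Tigit were set against the 132 with Gzmk alone. The latter hold 1 rule gene by definition, whereas 338 of the 402 held 2 or more. Median depth was 3631.5 and 3166.5 UMIs. This comparison therefore overlaps with that by number of rule genes, and the part of that number and of depth was not tested. Over 6179 genes, 197 (3.19%) were higher in the checkpoint-positive members and 163 (2.64%) lower, with the median gene at 0.02. The checkpoint and exhaustion list had 12 of 22 genes higher and 1 lower (median 1.13). Havcr2 was at 229 against 47.1 CPM (2.22), Tox2 at 82.3 against 16.4 (2.17), Ctla4 at 182 against 47.1 (1.89), Entpd1 at 168 against 47.1 (1.77) and Tox at 645 against 270 (1.24). Of 13 chemokine and receptor genes 4 were higher and 2 lower (median -0.32), among the higher ones Ccl3 (2.44) and Ccl4 (1.90), and Ccl5 was within the fold (0.75). The naive and central memory list had 8 of 15 genes lower and none higher (median -1.06). Without the cells that held RNA of other types that median was -0.45, and the checkpoint median 1.32. Il7r was at 173 against 795 CPM (-2.20), Tcf7 at 132 against 442 (-1.75), S1pr1 at 82.9 against 264 (-1.67) and Klf2 at 195 against 606 (-1.64). Cx3cr1 was lower in the checkpoint-positive members (40.0 against 131 CPM, -1.71), as was the integrin gene Itga1 (-1.15). For Tcf7, S1pr1, Klf2, Cx3cr1 and Itga1 no values without the cells that held RNA of other types are given. The Gzmk-only members held more endothelial RNA (1501 against 587 CPM), and its part in these ratios was not tested.

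Among genes with at least 5 UMIs in each subset, several of the largest ratios between them rested on few cells. Below that minimum, Il10 was higher by 5.10, with 120 UMIs in the checkpoint-positive members and 0 in the others. Ly6d (4.04), Irf4 (3.96), Cox6a2 (3.85) and Cers6 (3.31), with 0 or 1 UMI in the Gzmk-only members, were higher too. For Il10 and these genes the number of cells with a UMI was not taken. Nor were their values without the cells that held RNA of other types, so that they may rest on few such cells. Lyz2, a myeloid gene, was higher by 3.10, with 360 of its 573 UMIs in 2 cells, and Siglech, a marker of plasmacytoid dendritic cells, by 2.90, with its UMIs in 10 cells. Without the cells that held RNA of other types the values were -0.02 and 0.18. Cxcl2 went from 2.49 to 0.98. Of the Kupffer cell and monocyte genes 3 of 4 measured were higher in the checkpoint-positive members (median 1.46, then 0.17), with a sum of 545 against 190 CPM. Of the B cell genes 3 of 5 were higher (median 1.05, then 0.07), with a sum of 1175 against 752 CPM. All 7 endothelial genes were lower in the checkpoint-positive members (median -1.27, then -0.82), where they summed to 587 CPM against 1501 CPM, and 5 of the Gzmk-only cells held 585 of the 733 UMIs. Adgrl4 (-2.45), Rasgrp3 (-2.08) and Plpp1 (-2.06) were among the lowest with Il7r and Tnfrsf26 (-2.09), and came to 0.18, -0.24 and -0.82 without such cells. In contrast, Gm36723 (2.72, then 2.65), Izumo1r, the folate receptor FR4 (2.46, then 2.36), and the transcription factor gene Irf8 (2.66, then 2.15) stayed above 2, and Il7r (-2.40) and Tnfrsf26 (-2.65) stayed lower.

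Tcf7 and Havcr2 marked largely separate members. Tcf7 alone was detected in 139 members (26.0%, 22.4 to 30.0), Havcr2 alone in 183 (34.3%, 30.2 to 38.5), both in 12 (2.25%) and neither in 200 (37.5%). The 12 cells with both were deep, with a median of 7959 UMIs, against 4221, 3655 and 3166 in the other sets. Of the cells with Tcf7 alone, 107 held 1 rule gene and 7.91% held 3 or 4, against 65.0% of the cells with Havcr2 alone. The former had Il7r at 846 against 20.7 CPM, Slamf6, a surface marker of precursor exhausted cells, at 127 against 5.53, and the chemokine gene Xcl1 at 223 against 31.8. The latter had Gzma at 2885 against 422 CPM, Gzmb at 1817 against 311, Ccl3 at 1176 against 166, Tox at 819 against 223, Entpd1 at 246 against 16.8 and Mki67 at 169 against 39.6. Ifng was alike in both, at 123 and 122 CPM. For comparison, the pool's CD8 T cells that lacked the 4 genes had Slamf6 at 127 CPM, Xcl1 at 179, Il7r at 1256 and Tox at 73.5. Those values describe cells split by measured genes, and cells without a UMI of either gene may still express it at this depth.

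T cell receptor (TCR) genes were unevenly used by the members, a pattern chosen after its values were seen. Of the 145 UMIs on alpha-chain V genes (Trav) in pool members, 110 (75.9%, 68.1 to 82.6) fell on 3 genes, Trav9-2, Trav6-1 and Trav5-1. In the other CD8 T cells the top 3, which were other genes, took 16 of 51 UMIs (31.4%, 19.1 to 45.9). For the beta-chain V genes (Trbv) the top 3 took 38.3% and 35.9%. All 3 Trav genes lie on the plus strand of chromosome 14, at chr14:53590857-53591514 (Trav9-2), chr14:52638515-52638962 (Trav6-1) and chr14:52622566-52623082 (Trav5-1) in GRCm38. The mouse locus holds near copies of its V genes, and the last 90 bases of the GENCODE transcripts are shown, each over its most similar copy, since reads could be split between them. Capitals mark the bases that differ within a pair.
Trav9-2: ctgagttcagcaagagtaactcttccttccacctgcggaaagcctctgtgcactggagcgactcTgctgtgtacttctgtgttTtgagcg
Trav9d-2: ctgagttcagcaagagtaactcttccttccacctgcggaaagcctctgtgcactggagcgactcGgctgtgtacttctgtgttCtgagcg
Trav6-1: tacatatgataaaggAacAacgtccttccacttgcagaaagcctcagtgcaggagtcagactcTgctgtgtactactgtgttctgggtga
Trav6-2: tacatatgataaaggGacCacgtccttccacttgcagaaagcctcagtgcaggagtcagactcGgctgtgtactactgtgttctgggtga
Trav5-1: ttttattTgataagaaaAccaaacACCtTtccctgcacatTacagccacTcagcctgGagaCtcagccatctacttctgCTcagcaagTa
Trav10n: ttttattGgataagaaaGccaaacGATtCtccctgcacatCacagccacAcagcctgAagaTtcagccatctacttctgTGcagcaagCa

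Trav9-2 and Trav9d-2 (chr14:52892186-52892618) were alike in 88 of the 90 bases, and 9 other Trav genes shared at least 81 with Trav9-2. Trav6-1 and Trav6-2 (chr14:52667411-52667864) were alike in 87 bases. Which copy the UMIs came from is therefore uncertain for these 2 genes. Trav5-1 was closest to Trav10n (chr14:53122114-53122610), with 77 bases alike, and no other Trav gene reached 81.

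Trav9-2 was detected in 39 members and 1 of the other CD8 T cells, Trav6-1 in 35 and 1, and Trav5-1 in 21 and none. Among the libraries' filtered cells that held the gene, members of the pool made up 39 of 42 for Trav9-2, 35 of 37 for Trav6-1 and 21 of 28 for Trav5-1. At least 1 of the 3 was found in 76 members (14.2%, 11.4 to 17.5) and in 2 of 512 other CD8 T cells (0.391%, 0.0473 to 1.40). By number of rule genes the share was 3.06% at 1, 14.6% at 2, 20.3% at 3 and 30.0% at 4. It was 17.9% of the checkpoint-positive members and 3.03% of those with Gzmk alone. The joining gene Traj38 (chr14:54180574-54180635, plus strand) was seen in 29 members and 1 other CD8 T cell, with 9 of the members holding Trav9-2, 10 Trav6-1 and 14 none of the 3 Trav genes. Trav9-2 and Trav6-1 were found together in 15 cells, and 2 of the 76 cells were called doublets. V genes are sparsely covered in this assay, with a Trav UMI in 106 of 534 members, and no receptor was assembled.

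**Figure D5:**
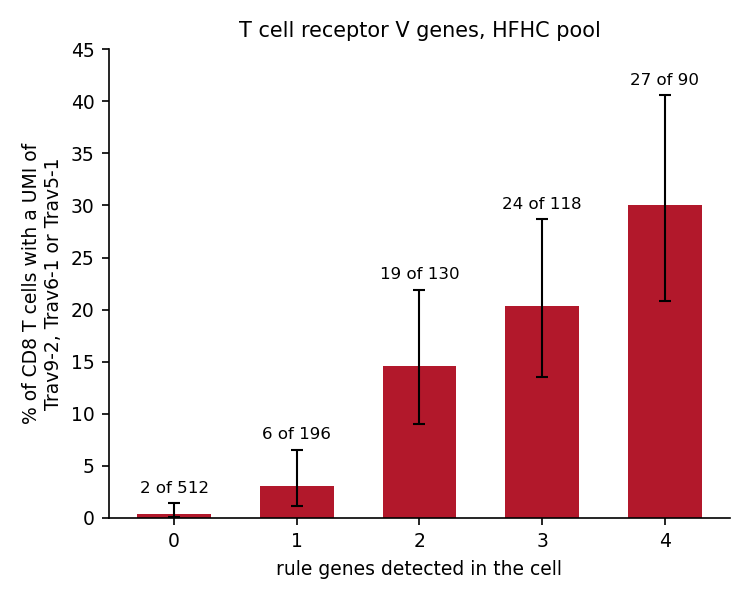
Percent of CD8 T cells of the HFHC pool with at least 1 UMI of Trav9-2, Trav6-1 or Trav5-1 (y axis) by the number of rule genes detected in the cell (x axis), with exact 95% binomial intervals and the cell counts above the bars. The share is 0.391% at 0 rule genes and 30.0% at 4.

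The 76 members with these V genes were set beside the 268 members that held 2 or more rule genes and none of the 3 Trav genes, at a median of 3582 and 3609.5 UMIs. Ccl4 was at 2377 CPM (2211 to 2552) against 1103 (1042 to 1167) and Ccl3 at 1337 against 712. Havcr2 was at 362 against 241 CPM, Entpd1 at 253 against 166 and Tox at 821 against 703. Gzma was not higher in them (2283 against 2645 CPM), nor was Gzmk (556 against 719 CPM). Tcf7 was at 28.1 against 85.5 CPM (12.9 to 53.4 and 69.2 to 105), whereas Il7r was at 122 against 88.2 (86.6 to 167 and 71.6 to 107). The groups differed in their rule genes, since 6 of the 76 held only 1 and 51 held 3 or 4, against 157 of the 268. Among members with 3 or 4 rule genes, 51 with these V genes and 157 without, Ccl4 was at 2948 against 1261 CPM and Ccl3 at 1651 against 859. There Havcr2 was at 429 (348 to 523) against 293 CPM (254 to 336), while the intervals of Entpd1 (204 to 343 and 162 to 229) and Tox (779 to 1030 and 706 to 838) overlapped, as did those of Tcf7 (12.3 to 63.2 and 49.8 to 90.1). All 4 rule genes were held by 27 of the 51 and 63 of the 157. The mice that gave the cells are not known, so that cells with one V gene may come from 1 animal.

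Promoters of Pdcd1, Tigit and Havcr2 are shown because these receptor genes were detected together in the cells, and that of Lag3 was not analysed here. They are the RefSeq sequences of 300 bases around the annotated start in GRCm38.p6, Pdcd1 at chr1:94052504-94052803 and Tigit at chr16:43664135-43664434 on the minus strand and Havcr2 at chr11:46454681-46454980 on the plus strand. Capitals mark matches on either strand to 4 motifs, AP-1 (TGACTCA), NR4A (AAAGGTCA), the NFAT core (GGAAA) and the RUNX core (TGTGGT), with no overlap between matches in the sequences shown.
Pdcd1: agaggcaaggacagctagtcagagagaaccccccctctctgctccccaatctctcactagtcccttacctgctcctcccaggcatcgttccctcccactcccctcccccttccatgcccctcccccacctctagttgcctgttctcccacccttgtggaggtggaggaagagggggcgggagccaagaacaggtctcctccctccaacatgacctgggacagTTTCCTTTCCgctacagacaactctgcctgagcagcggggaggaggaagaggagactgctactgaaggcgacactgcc
Tigit: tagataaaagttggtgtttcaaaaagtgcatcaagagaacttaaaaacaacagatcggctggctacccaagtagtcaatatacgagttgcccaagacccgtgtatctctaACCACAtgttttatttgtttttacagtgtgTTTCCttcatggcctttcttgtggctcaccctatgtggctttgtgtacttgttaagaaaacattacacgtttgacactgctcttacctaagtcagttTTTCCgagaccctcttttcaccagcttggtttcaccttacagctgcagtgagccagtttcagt
Havcr2: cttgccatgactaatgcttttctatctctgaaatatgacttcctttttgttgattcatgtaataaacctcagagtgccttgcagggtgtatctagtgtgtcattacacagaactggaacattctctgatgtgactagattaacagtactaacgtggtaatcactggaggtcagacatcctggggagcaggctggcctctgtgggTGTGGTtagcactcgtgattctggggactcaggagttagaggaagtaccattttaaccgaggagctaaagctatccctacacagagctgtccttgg

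Pdcd1 held 2 matches to the NFAT core, Tigit held 2 and 1 to the RUNX core, and Havcr2 held 1 to the RUNX core. None held the AP-1 or the NR4A motif in this window. Such short motifs are common. The NFAT core was found in 61.3% of all 27025 promoters, in 57.4% of those of the genes higher in members and in 57.7% of those of the lower ones. The RUNX core was found in 16.9%, 14.5% and 12.2%, AP-1 in 5.17%, 4.83% and 2.04%, and NR4A in 1.46%, 1.21% and 1.02%. Among the compared genes with a promoter in the table the shares were 59.6%, 12.3%, 3.21% and 0.848% for the NFAT core, RUNX core, AP-1 and NR4A.

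The WT library's 35 members were set against their 411 other CD8 T cells in the same way, and differences from the pool were not tested. Of 3851 genes compared, 207 (5.38%) were higher and 229 (5.95%) lower, with the median gene at 0.12. Of the checkpoint and exhaustion genes only 9 had enough UMIs, of which 3 were higher and none lower (median 0.82), and of 15 cytotoxic genes 2 were higher (median 0.45). Ccl5 was at 2915 against 2490 CPM (0.23), Gzma at 758 against 492 (0.63) and Gzmb at 1211 against 877 (0.47). Tcf7 was at 331 against 495 CPM (-0.55, -1.03 to -0.15). Of 17 naive and central memory genes 7 were lower and none higher (median -0.85), among the lower ones Lef1 (-2.21), Satb1 (-1.89), Il7r (-1.20) and Ccr7 (-1.16). Of 14 cell cycle genes 10 were higher and none lower (median 1.21), with Birc5 at 298 against 49.5 CPM (2.59), Hmgb2 at 2300 against 656 (1.81) and Mki67 at 318 against 113 (1.51), the last in 8 of the 35 cells (22.9%) against 4.87%. Top2a (0.87), Rrm2 (0.79), Tubb5 (0.16) and Pcna (-0.26) were within the fold. UMIs of other lineages were found in 16 of the 35 (45.7%, 28.8 to 63.4) and in 102 of the 411 other CD8 T cells (24.8%, 20.7 to 29.3). The 35 were also the deeper cells, with a median of 3293 UMIs against 2131, and these shares were not taken at equal depth. The NK and unconventional T cell genes summed to 2422 CPM in these members and 1569 in the other CD8 T cells, and the hepatocyte genes to 196 and 2202 CPM. None of the 3 leading Trav genes of the pool had a UMI in them. Few cells leave wide intervals for these members.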

How the data were processed

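Liver cells of 2 libraries were measured by scRNA-seq on the BD Rhapsody system. Per the file headers, the deposited tables hold counts, the UMIs per cell and gene after recursive substitution error correction, made by the authors with the BD Rhapsody WTA Analysis Pipeline 1.10.1 on the mouse genome build GRCm38 with a GENCODE annotation, for the cells that the pipeline called. The submitters' processing notes also name Seurat, and its normalized values were not used here. All values are whole numbers, and 0 columns of samples were left unmatched. No column gave a sample tag per cell, so that the pool could not be split by genotype.

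The members and gene lists were chosen with earlier results of these data known. Cells were kept and grouped by the rule given in the report. Comparison groups were CD8 T cells without a UMI of the 4 genes, CD4 T cells (Cd4, no Cd8 or Foxp3 UMI), regulatory T cells (Foxp3), B cells (at least 2 Cd79a UMIs, no Cd3 or Cd8 UMI) and KCs (at least 3 UMIs of Clec4f and Vsig4, no Cd3 or Cd79a UMI). Each gene's UMIs were summed over the cells of a group and divided by the group's total (CPM). Log2 ratios of CPM had 1 UMI added to each sum and were taken for genes whose 2 sums came to 50 UMIs or more. Exact 95% intervals cover counting error only. For shares at equal depth, cells were thinned to 1000 UMIs with a seed of 42, leaving out 6 CD8 T cells and 5 B cells of the pool and 21 CD8 T cells and 302 B cells of the WT library. Doublets were called with Scrublet in scanpy 1.11.5 per library (392 of 19625 cells, 2.00%, in the pool and 1908 of 23346, 8.17%, in the WT library) and kept. Named genes were the rule genes, those of the lists, and the 12 highest and 12 lowest ratios (6 and 6 for checkpoint-positive against Gzmk-only members) with at least 5 UMIs in each group; a few of these are not reported here. Scripts ran in Python 3.11.15 with numpy 2.4.6, scipy 1.17.1 and matplotlib 3.10.9, and were tested on simulated counts. Alternatives to the filters, the rule, the scaling and the minimum count were tried. V gene sequences came from GENCODE transcripts and promoters from RefSeq.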

Additional observations from a re-analysis of the deposited data

Results flagged for a closer look

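For 9 of the named genes the members differed from the other CD8 T cells in one direction in the HFHC pool and in the opposite one in the WT library, with the 95% counting intervals of both ratios clear of 0, and these differences between libraries were not tested. The share of all compared genes that did so was not counted. With 1 library each, diet, genotype and capture cannot be told apart. Of these, 6 are endothelial or stromal genes, which were somewhat higher in the members of the pool and lower in those of the WT library. In the pool the median of the endothelial list turned from 0.47 to -0.16 without the cells that held RNA of other types, and to -0.46 with a mitochondrial limit of 10%. With that limit all 6 genes were below 0 in the pool, from -0.65 (Clec4g) to -0.15 (Plpp1). Without the cells that held RNA of other types Clec4g stayed above 0 (0.19). The others then lay between -0.08 (Ptprb) and -2.12 (Stab2), so that their opposite directions did not hold. With all cells, the log2 ratios in the pool and the WT library were 0.39 and -2.33 for Clec4g, 0.47 and -1.88 for Dnase1l3, and 0.43 and -4.01 for Kdr. Kdr had no UMI in the 35 members of the WT library and 109 in their other CD8 T cells. The ratios were 0.58 and -1.96 for Ptprb, 0.53 and -2.65 for Stab2, and 0.72 and -1.50 for Plpp1. The myeloid gene Lyz2 was at 0.19 and -2.13. In the pool 2 members held 360 of its 591 UMIs and 2 of the other CD8 T cells 258 of 523. With the limit of 10% its ratio was -0.37, and without the cells that held RNA of other types 0.33. The remaining genes are expressed by T cells. Klrk1, which encodes the activating receptor NKG2D, was at -0.33 and 1.03, and Trbc1, a constant region of the TCR beta chain, at 0.47 and -0.52.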

How the results depend on the processing

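No paired analysis was possible because each library is 1 sample. The share of CD8 T cells that met the rule was 51.1% in the pool. It was 62.9% with a mitochondrial limit of 10%, 40.4% with at least 2 UMIs of the 4 genes, 54.1% with at least 2 Cd3 and 2 Cd8 UMIs, 38.4% without Gzmk in the rule and 39.8% when cells were thinned before the rule. In the WT library (7.85%) it was 2.69% with at least 2 UMIs and 3.87% thinned. The 448 higher and 255 lower genes became 203 and 112 with the same members thinned, 126 and 104 when thinned before the rule, 726 and 416 with a minimum of 20 UMIs, and 275 and 155 with a minimum of 100. Fewer genes reach the minimum in the thinned tables and more at 20 UMIs. With the median gene set to 0 the counts were 354 and 336. No gene past the fold went past it in the opposite direction in any of 13 such alternatives. They reuse largely the same cells, so that such a reversal was unlikely in advance. When thinned before the rule, 88 of the 126 higher and 49 of the 104 lower genes were among the 448 and 255. Between checkpoint-positive and Gzmk-only members, the 197 higher and 163 lower genes became 65 and 37 when thinned and 415 and 452 with a minimum of 20 UMIs. Without the cells that held RNA of other types, an alternative chosen after seeing the data, the lower genes were 106. With Gzmk left out of the rule, the Gzmk-only members, higher in Cx3cr1 as given above, count as other CD8 T cells. The ratio of Cx3cr1 then went from 1.46 to -0.03, and why these members were higher in it was not tested. Of 230 values of named genes, 225 stayed within their counting interval without doublets, 219 with the median set to 0, 157 without Gzmk and 129 when thinned. Of 17 list medians, 16, 15, 10 and 8 stayed, in the same order, within the counting interval of the gene nearest the median, and 8 with a mitochondrial limit of 10%. The small number of cells limits single genes of the 35 WT members.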

Other observations

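Members with Gzma and members without it differed in other genes as well. The 189 members with Gzma had a median of 3431 UMIs and the 345 without it 3603. With Gzma, Cd7, a surface protein of T and NK cells, was at 1430 against 593 CPM, Mki67 at 250 against 91.4 and Top2a at 304 against 99.0. S1pr5, a receptor that guides effector cells out of tissue, was at 26.0 against 3.46 CPM. Its values rest on 20 and 5 UMIs (15.9 to 40.2 and 1.12 to 8.08 CPM). The chemokine gene Xcl1 was lower in them, at 40.3 against 195 CPM, as were Tcf7 (62.5 against 274) and Il7r (117 against 413). Ifng did not follow Gzma, at 118 against 167 CPM. Of the members with Gzma, 52.9% (45.5 to 60.2) held 3 or 4 of the rule genes, compared with 31.3% (26.4 to 36.5) of the members without it. The cells were split by a measured gene, so that these values are a description.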
